A study of Danio rerio with 2 samples.

Results

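The genes followed here encode parts of the actomyosin contractility machinery, across the cells of shield-stage zebrafish embryos. They are the regulatory light chains *myl12.1*, *myl12.2* and *myl9b*, the non-muscle myosin II heavy chains *myh9a*, *myh9b* and *myh10*, the GTPases *rhoaa* and *rhoab*, and the kinases *rock2a* and *rock2b*. They were taken by gene symbol from the deposited gene list, 10 of 27597 genes, and all 10 were found. Single-cell RNA sequencing was done on whole embryos at the shield stage, with 1 library of *MZwnt11/slb* embryos (maternal-zygotic mutants of the Wnt11 ligand gene *wnt11f2*, allele tx226, in which both the egg's own store and the embryo's own copies are mutant) and 1 library of wildtype embryos (strain A2B2). Both were dissociated and fixed with acetic acid and methanol, sorted for DAPI-stained single cells and made into 3′ end libraries. The number of embryos behind a library was not stated in the sources consulted, no further treatment is named for either group, and genotype, parents and library cannot be told apart.

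Non-muscle myosin II pulls on actin filaments as a complex of paired heavy chains, essential light chains and regulatory light chains. RhoA in its GTP-bound form activates ROCK, which phosphorylates the regulatory light chain and inhibits the phosphatase that would remove the phosphate, so that the cortex contracts. In the gastrulating zebrafish embryo the enveloping layer is an epithelial sheet under tension that covers the deep cells, which form the germ layers.

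The libraries held 7911 *MZwnt11/slb* and 8862 wildtype cells, with 40025626 and 37370253 UMIs (unique molecular identifiers, one for each captured transcript). Median UMIs per cell were 4595 in *MZwnt11/slb* and 3873.5 in wildtype, median mitochondrial shares were 5.36% and 5.95% of UMIs, and 16 cell barcodes occurred in both libraries. *wnt11f2* stood at 41.4 CPM (UMIs scaled to a total of 1e6) over all *MZwnt11/slb* cells and at 99.3 CPM over all wildtype cells. Clustering without these and the other listed contractility genes, 122 in all, gave 15 clusters. Of these, 3 carried 16 of the 19 enveloping layer (EVL) markers found and are called EVL-like, with 767 *MZwnt11/slb* and 820 wildtype cells. Another was yolk syncytial layer (YSL)-like, with 68 *MZwnt11/slb* and 141 wildtype cells, and the other 11, with 7076 *MZwnt11/slb* and 7901 wildtype cells, are called deep cells. The deep clusters included ventrolateral mesoderm-, axial mesoderm-, neural ectoderm-, germ cell- and stress-like clusters and 5 that stayed unnamed. Comparisons of single deep clusters take the 10 with at least 20 cells in each library and leave out the unnamed cluster 14, with 19 *MZwnt11/slb* and 10 wildtype cells.

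The EVL-like clusters were named from these markers, so the marker levels describe the classes and are no separate check of the name, and none of the markers was among the 10 leading genes of these clusters by fold. The 19 markers summed to 85999 CPM in EVL-like and 499.9 CPM in deep cells of *MZwnt11/slb*, and to 96500 CPM in EVL-like and 572 CPM in deep cells of wildtype. Deep cells carried keratin UMIs at 0.581% of the EVL-like level in *MZwnt11/slb* and at 0.567% in wildtype. The EVL-like cells of the libraries fell mostly into separate clusters, cluster 9 with 585 *MZwnt11/slb* and no wildtype cells, and cluster 7 with 696 wildtype and no *MZwnt11/slb* cells. Cluster 11 was shared by 182 *MZwnt11/slb* and 124 wildtype cells. It had a keratin share of 4.47% of UMIs, against 9.57% in cluster 9 and 9.62% in cluster 7, and median UMIs of 8767.5 in *MZwnt11/slb* and 7222.5 in wildtype. The unnamed deep cluster 6 had still higher median UMIs, 9286 in *MZwnt11/slb* and 7817 in wildtype, and was kept among the deep cells. No doublet removal was made, so ratios that use EVL-like cells are given again without cluster 11 for the contractility genes but the rare *myl9b* and *myh9b*. For the other genes of the pathway these ratios are given with cluster 11 only.

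Levels are given in CPM, the UMIs of a gene scaled to all UMIs of the class. With 1 library per genotype there is no replicate, so no test was made. Intervals are exact 95% intervals of counted UMIs and cover counting error only. Log2 ratios within a library compare EVL-like over deep cells, and those between libraries compare *MZwnt11/slb* over wildtype. Clusters are parts of the same libraries, so clusters that go the same way are not replicates of a ratio.

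The contractility genes did not share one pattern between EVL-like and deep cells. A heavy chain, *myh9a*, and a kinase, *rock2b*, were several-fold higher in EVL-like cells of both libraries, *rock2a* was lower there in both, and the abundant light chains and the RhoA genes had log2 ratios between -0.68 and -0.10. In *MZwnt11/slb*, 2 of the 10 genes were at least 1.5-fold higher in EVL-like cells, a size reached by 12.0% of 9788 genes with at least 100 UMIs, and 2 were at least 1.5-fold lower, against 46.9% of those genes. In wildtype 2 genes were at least 1.5-fold higher, against 12.6% of 9944 genes, and 4 were at least 1.5-fold lower, against 49.9%. In each library 9 of the 10 genes had at least 100 UMIs. The other gene, *myh9b*, falls outside the genes behind these shares and was not past 1.5-fold. The median log2 ratio of the 10 genes was -0.28 in *MZwnt11/slb* and -0.36 in wildtype, beside -0.53 and -0.58 over all genes. Most genes thus took a smaller share of the UMIs of EVL-like than of deep cells. Under median-of-ratios scaling, which moved the median of all genes by 0.39 in *MZwnt11/slb* and 0.43 in wildtype, the median of the 10 genes was 0.11 in *MZwnt11/slb* and 0.08 in wildtype.

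**Figure D1:**
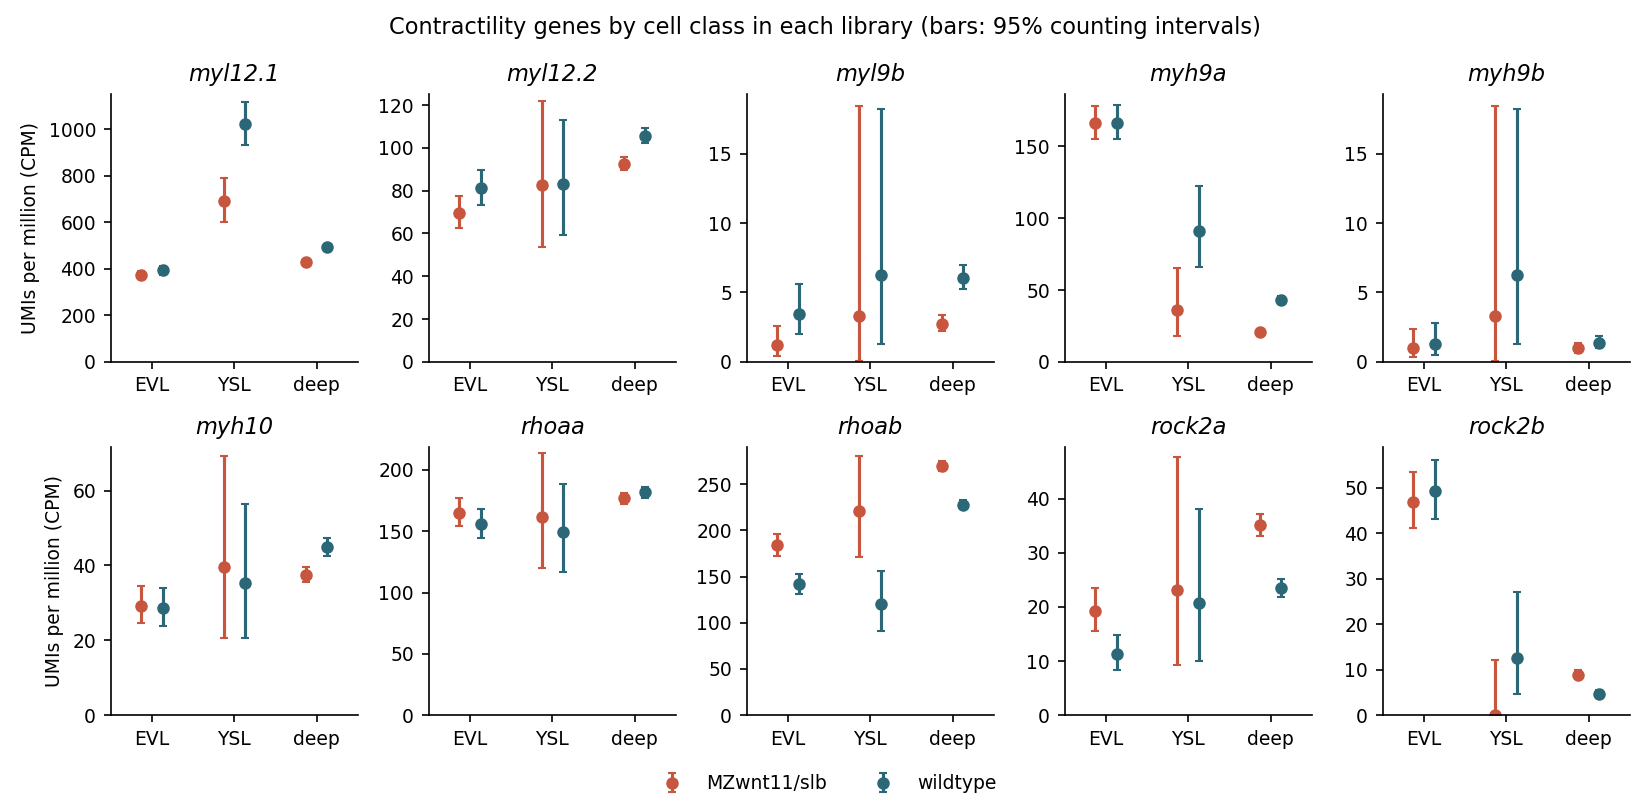
Each panel gives the level of 1 gene in CPM (vertical axis, starting at 0) in EVL-like, YSL-like and deep cells of the *MZwnt11/slb* library (left point of each pair) and the wildtype library (right point), with 95% counting intervals as bars. *myh9a* and *rock2b* stand highest in EVL-like cells of both libraries, *myl12.1* stands highest in YSL-like cells, and *myh9a* in deep cells is 20.8 CPM in *MZwnt11/slb* against 43.3 CPM in wildtype.

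The regulatory light chains are the phosphorylated switch of the myosin complex. *myl12.1* (ENSDARG00000099766) had 375 CPM in EVL-like and 429.9 CPM in deep cells of *MZwnt11/slb*, and 394 CPM in EVL-like and 496 CPM in deep cells of wildtype. The log2 ratio was -0.20 (-0.27 to -0.13) in *MZwnt11/slb* and -0.33 (-0.40 to -0.26) in wildtype, lower in EVL-like cells by CPM. With median-of-ratios scaling the sign turned, to 0.19 in *MZwnt11/slb* and 0.10 in wildtype. *myl12.2* (ENSDARG00000025326) had 69.6 CPM in EVL-like and 92.7 CPM in deep cells of *MZwnt11/slb*, and 81.1 CPM in EVL-like and 106 CPM in deep cells of wildtype. Its log2 ratios were -0.41 (-0.58 to -0.25) in *MZwnt11/slb* and -0.38 (-0.54 to -0.23) in wildtype, and that of wildtype turned to 0.05 with median-of-ratios scaling. *myl9b* (ENSDARG00000008030) was rare, with 6 UMIs in EVL-like and 95 in deep cells of *MZwnt11/slb*, and 16 in EVL-like and 195 in deep cells of wildtype. Its log2 ratio was -1.18 (-2.67 to -0.01) in *MZwnt11/slb* and -0.80 (-1.64 to -0.07) in wildtype, and the wildtype value was -0.43 with deep cells from named germ layer clusters and -0.37 with median-of-ratios scaling.

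The heavy chains carry the motor domain. *myh9a* (ENSDARG00000063295), which encodes the heavy chain of non-muscle myosin IIA, had 829 UMIs or 166 CPM in EVL-like cells and 721 UMIs or 20.8 CPM in deep cells of *MZwnt11/slb*. In wildtype it had 770 UMIs or 167 CPM in EVL-like cells and 1397 UMIs or 43.3 CPM in deep cells. The log2 ratio was 3.00 (2.86 to 3.15, 8.01-fold) in *MZwnt11/slb* and 1.94 (1.82 to 2.07, 3.85-fold) in wildtype. The EVL-like level was above that of all 10 deep clusters with at least 20 cells in both libraries. In deep cells *myh9a* stood at 12.5% of its EVL-like level in *MZwnt11/slb* and 26.0% in wildtype, against 0.581% and 0.567% for the keratins. *myh10* (ENSDARG00000000103), the heavy chain of non-muscle myosin IIB, had 29.3 CPM in EVL-like and 37.5 CPM in deep cells of *MZwnt11/slb*, and 28.6 CPM in EVL-like and 44.9 CPM in deep cells of wildtype. Its log2 ratio was -0.36 (-0.61 to -0.11) in *MZwnt11/slb* and -0.65 (-0.92 to -0.40) in wildtype. These became 0.03 in *MZwnt11/slb* and -0.22 in wildtype with median-of-ratios scaling. The wildtype ratio was also just under 1.5-fold, at -0.56, with deep cells from named germ layer clusters and with mitochondrial, ribosomal protein and keratin genes left out of the total. *myh9b* (ENSDARG00000001014), the second copy of the IIA heavy chain gene, gave only 5 UMIs in EVL-like and 34 in deep cells of *MZwnt11/slb*, and 6 in EVL-like and 44 in deep cells of wildtype. Its log2 ratios of 0.04 (-1.68 to 1.40) in *MZwnt11/slb* and -0.07 (-1.59 to 1.17) in wildtype were not resolved at this depth. Summed over the 3 heavy chain genes, the level was 197 CPM in EVL-like against 59.2 CPM in deep cells of *MZwnt11/slb*, and 196 CPM in EVL-like against 89.6 CPM in deep cells of wildtype.

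RhoA is the switch upstream of ROCK. *rhoaa* (ENSDARG00000026845) had 165 CPM in EVL-like and 177 CPM in deep cells of *MZwnt11/slb*, and 156 CPM in EVL-like and 182 CPM in deep cells of wildtype. The log2 ratio was -0.10 (-0.20 to 0.01) in *MZwnt11/slb* and -0.22 (-0.33 to -0.11) in wildtype, and turned to 0.29 and 0.21 with median-of-ratios scaling. *rhoab* (ENSDARG00000094673) had 184 CPM in EVL-like and 269 CPM in deep cells of *MZwnt11/slb*, and 142 CPM in EVL-like and 228 CPM in deep cells of wildtype. Its log2 ratio was -0.55 (-0.65 to -0.45) in *MZwnt11/slb* and -0.68 (-0.80 to -0.57) in wildtype, close to the median of all genes. Without cluster 11, in which *rhoab* stood at 230.5 CPM in *MZwnt11/slb* and 204 CPM in wildtype, the ratios were -0.76 and -0.86. With median-of-ratios scaling they were -0.16 and -0.25.

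The *rock2* genes went opposite ways. *rock2b* had 234 UMIs or 46.9 CPM in EVL-like cells and 306 UMIs or 8.81 CPM in deep cells of *MZwnt11/slb*, a log2 ratio of 2.41 (2.16 to 2.66, 5.33-fold). In wildtype it had 228 UMIs or 49.3 CPM in EVL-like cells and 151 UMIs or 4.68 CPM in deep cells, a log2 ratio of 3.40 (3.10 to 3.70, 10.5-fold). The EVL-like level exceeded that of every deep cluster with at least 20 cells in both libraries. This symbol is carried by 2 identifiers, which were summed, and ENSDARG00000004877 held 229 of the 234 EVL-like UMIs in *MZwnt11/slb* and 222 of the 228 in wildtype. *rock2a* (ENSDARG00000017500) had 19.3 CPM in EVL-like and 35.1 CPM in deep cells of *MZwnt11/slb*, and 11.3 CPM in EVL-like and 23.5 CPM in deep cells of wildtype. The log2 ratio was -0.87 (-1.18 to -0.57) in *MZwnt11/slb* and -1.06 (-1.50 to -0.66) in wildtype, and the EVL-like level was below that of all 10 deep clusters with at least 20 cells in both libraries. With median-of-ratios scaling the *MZwnt11/slb* ratio of *rock2a* was -0.48, under 1.5-fold, and that of wildtype was -0.63. *rock1*, a ROCK gene outside the 10, had 89 UMIs in EVL-like and 999 in deep cells of *MZwnt11/slb*, and 78 and 852 in wildtype. Its log2 ratio was -0.69 (-1.02 to -0.37) in *MZwnt11/slb* and -0.646 (-0.999 to -0.31) in wildtype, lower in EVL-like cells as for *rock2a*.

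**Figure D2:**
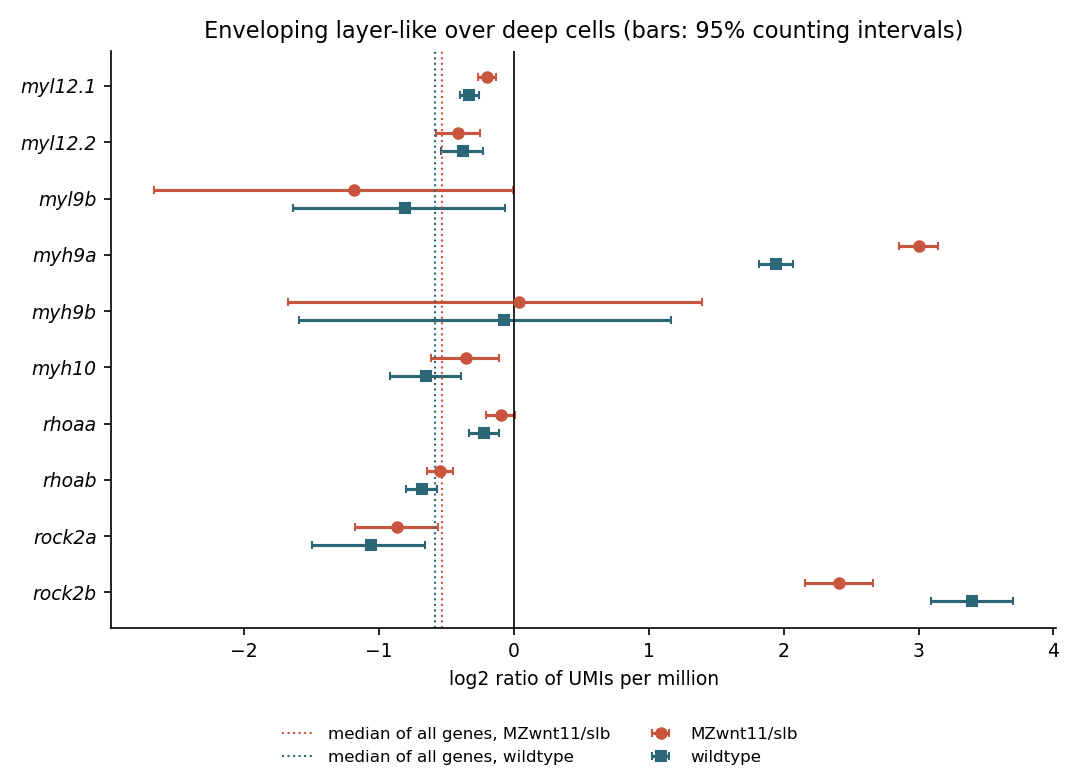
The log2 ratio of CPM in EVL-like over deep cells (horizontal axis) is plotted for each gene in the *MZwnt11/slb* library (circles, upper of each pair) and the wildtype library (squares, lower), with 95% counting intervals, and dotted lines mark the median of all genes at -0.53 and -0.58. *myh9a* and *rock2b* lie at 1.94 to 3.40, and the intervals of *myl9b* and *myh9b* are wide because few UMIs were counted.

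The shares of cells with a UMI gave the same order for these genes among cells thinned to 2944 UMIs. Cells with fewer UMIs were left out of the thinned shares, 47 EVL-like and 991 deep cells of *MZwnt11/slb* and 50 EVL-like and 2088 deep cells of wildtype. *myh9a* was detected in 38.3% of EVL-like and 5.74% of deep cells of *MZwnt11/slb*, and in 38.6% of EVL-like and 12.0% of deep cells of wildtype. Unthinned shares in EVL-like and deep cells were 59.3% and 9.44% in *MZwnt11/slb*, where median UMIs were 5665 in EVL-like and 4500.5 in deep cells, and 55.5% and 15.4% in wildtype, where they were 5263 and 3764. *rock2b* was detected in 14.6% of EVL-like and 2.60% of deep cells of *MZwnt11/slb*, and in 11.6% of EVL-like and 1.07% of deep cells of wildtype after thinning. *rock2a* was detected in 4.44% of EVL-like and 9.96% of deep cells of *MZwnt11/slb*, and in 2.73% of EVL-like and 6.85% of deep cells of wildtype. *myl12.1*, by contrast, was detected in 66.8% of thinned EVL-like cells in both libraries, against 69.4% of deep cells in *MZwnt11/slb* and 75.2% in wildtype.

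The share of 1 gene within a pair does not move with the total of the class. *rock2b* made up 70.9% (65.7 to 75.8) of the *rock2a* and *rock2b* UMIs of EVL-like cells and 20.1% (18.1 to 22.2) of those of deep cells in *MZwnt11/slb*. In wildtype it made up 81.4% (76.4 to 85.8) in EVL-like and 16.6% (14.2 to 19.2) in deep cells. By EVL-like cluster it made up 79.4% in cluster 9 of *MZwnt11/slb* and 84.6% in cluster 7 of wildtype. In cluster 11 it made up 47.1% (36.3 to 58.1) in *MZwnt11/slb* and 65.2% (49.8 to 78.6) in wildtype. Over single deep clusters the share lay between 8.06% and 24.7% in *MZwnt11/slb* and between 12.5% and 20.7% in wildtype, all below the EVL-like shares. Cluster 14, outside this range of 10 clusters, had 2 *rock2b* and 0 *rock2a* UMIs in *MZwnt11/slb* and 1 of each in wildtype, too few for a share. *myh9a* made up 85.0% (82.6 to 87.2) of the *myh9a* and *myh10* UMIs of EVL-like cells and 35.7% (33.6 to 37.8) of those of deep cells in *MZwnt11/slb*, and 85.4% (82.9 to 87.6) in EVL-like and 49.1% (47.2 to 50.9) in deep cells of wildtype. The RhoA pair differed less. *rhoaa* made up 47.3% (44.9 to 49.7) in EVL-like and 39.6% (38.9 to 40.4) in deep cells of *MZwnt11/slb*, and 52.4% (49.7 to 55.0) in EVL-like and 44.4% (43.5 to 45.2) in deep cells of wildtype. Its share was 50.7% in cluster 9 of *MZwnt11/slb* and 55.5% in cluster 7 of wildtype. In cluster 11 it was 42.2% (38.6 to 46.0) in *MZwnt11/slb* and 42.9% (37.6 to 48.3) in wildtype, close to deep cells. *myl12.2* made up 15.7% to 17.7% of its pair with *myl12.1* in EVL-like and deep cells of both libraries. *myh9a* made up 95.5% to 99.4% of its pair with *myh9b*. How the counting treated reads that match both of such close copies was not examined. How 3′ ends of each copy are annotated can also set the level of a share, so shares are compared between classes only.

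**Figure D3:**
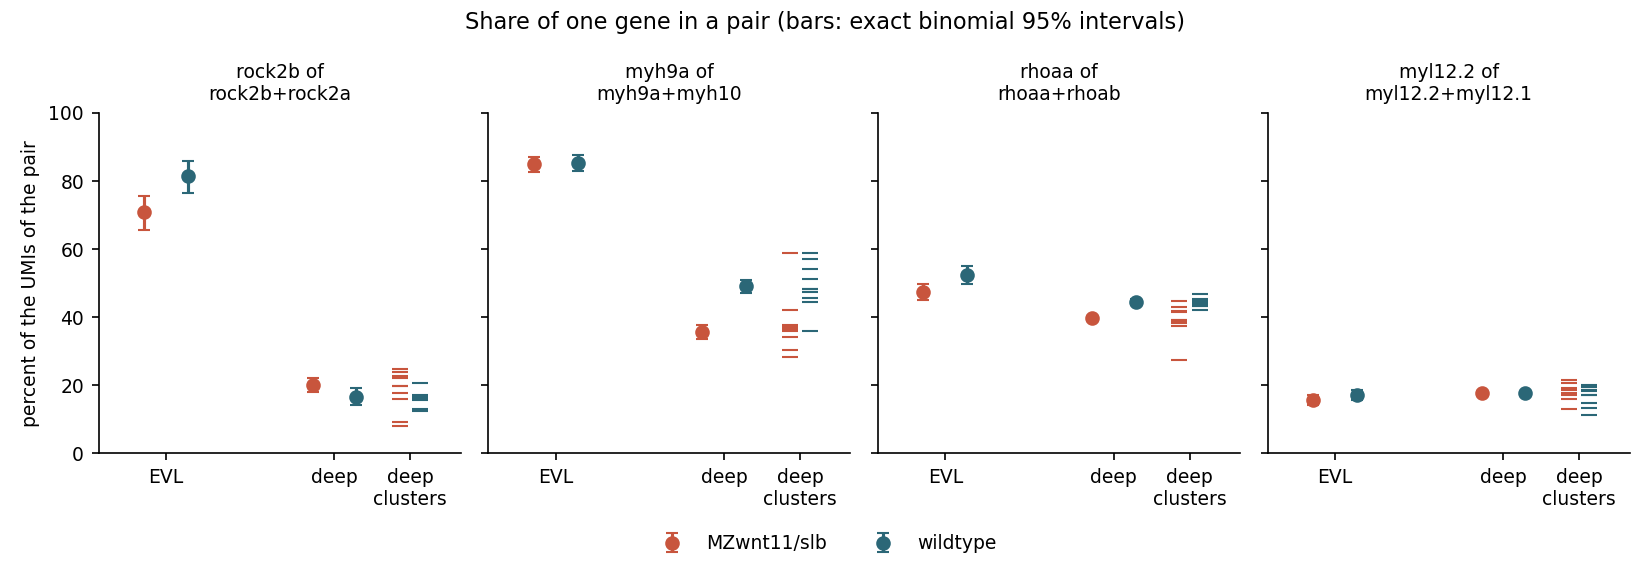
Each panel gives the percent of the UMIs of a gene pair that came from the first named gene (vertical axis) in EVL-like and deep cells of the *MZwnt11/slb* library (left points) and the wildtype library (right points), with exact binomial 95% intervals, and dashes give the deep clusters with at least 20 cells. *rock2b* takes 70.9% and 81.4% of its pair with *rock2a* in EVL-like cells, and no dash of that panel lies above 24.7%.

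Single clusters showed where the levels came from. Within the EVL-like cells, *myh9a* stood at 206 CPM (191 to 223) in cluster 9, of *MZwnt11/slb* cells, and at 189 CPM (175 to 204) in cluster 7, of wildtype cells. In cluster 11 it stood at 93.1 CPM (79.4 to 108) in *MZwnt11/slb* and 81.2 CPM (64.2 to 101) in wildtype. *rock2b* had 59.9 CPM in cluster 9 and 54.1 CPM in cluster 7, against 23.3 CPM in *MZwnt11/slb* and 31.2 CPM in wildtype cells of cluster 11. Both genes were thus lower in the cluster of lower keratin share, with levels between those of the other EVL-like clusters and of deep cells. Whether cells joined to other cells contribute to cluster 11 was not tested. *myl12.1* followed another order. It was highest in the YSL-like cluster, at 691 CPM (600.2 to 791) in *MZwnt11/slb* and 1022 CPM (934 to 1116) in wildtype. Among the 10 deep clusters with at least 20 cells it was highest in cluster 4, ventrolateral mesoderm-like with *mespaa* and *msgn1* among its leading genes, at 611 CPM in *MZwnt11/slb* and 701 CPM in wildtype, and lowest in cluster 1, unnamed, at 359 CPM and 424 CPM. *myl12.2* spanned less, from 81.7 to 119.9 CPM over the same 10 clusters of *MZwnt11/slb* and from 82.4 to 119.7 CPM over those of wildtype. In cluster 14 *myl12.1* had 60 UMIs or 674 CPM (514 to 867) in *MZwnt11/slb* and 27 UMIs or 622 CPM (410 to 905) in wildtype, and *myl12.2* had 6 UMIs and 1 UMI.

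Without cluster 11, the EVL-like over deep log2 ratio of *myh9a* was 3.31 in *MZwnt11/slb* and 2.13 in wildtype, and that of *rock2b* 2.77 and 3.53, both higher than with it. *rock2a* was at -1.18 in *MZwnt11/slb* and -1.26 in wildtype, *myh10* at -0.20 and -0.79, *rhoaa* at -0.11 and -0.21, *myl12.1* at -0.22 and -0.38, and *myl12.2* at -0.42 and -0.51. The *MZwnt11/slb* over wildtype ratio in EVL-like cells was then 0.66 for *rock2a*, 0.34 for *rhoab*, 0.33 for *myh10*, 0.13 for *myh9a*, 0.06 for *rhoaa*, -0.04 for *myl12.1* and -0.09 for *myl12.2*, and that of *rock2b* changed sign, to 0.15.

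**Figure D4:**
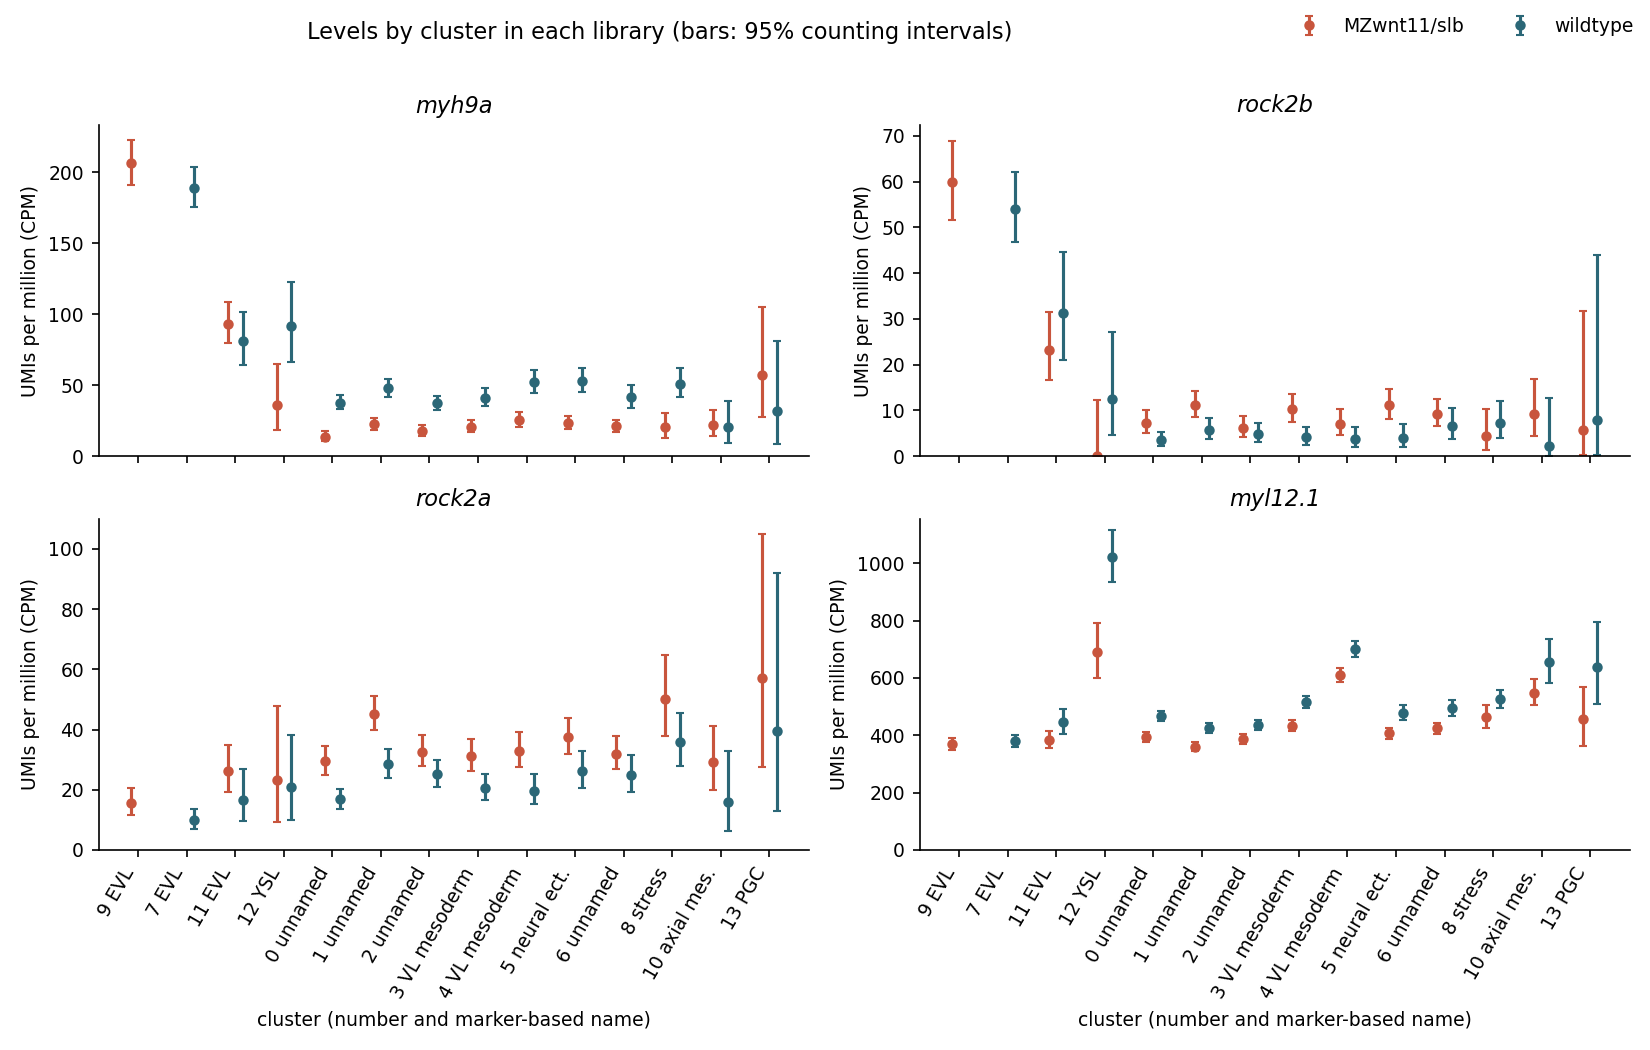
Levels in CPM (vertical axis, starting at 0) of *myh9a*, *rock2b*, *rock2a* and *myl12.1* are plotted by cluster, with EVL-like clusters first, then the YSL-like cluster and the deep clusters, for the *MZwnt11/slb* library (left points) and the wildtype library (right points), with 95% counting intervals. *myh9a* is higher in wildtype than in *MZwnt11/slb* in 8 of the 10 deep clusters, and *rock2a* is higher in *MZwnt11/slb* in all 10.

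Between the libraries, 4 of the 10 genes differed by at least 1.5-fold in EVL-like or deep cells. In deep cells *myh9a* and *myl9b* were lower in *MZwnt11/slb*, and *rock2b* was higher. In EVL-like cells *rock2a* was higher and *myl9b* lower in *MZwnt11/slb*. In deep cells 1 of the 10 genes was at least 1.5-fold higher, against 12.5% of 11095 genes, and 2 were at least 1.5-fold lower, against 19.9%. *myh9b*, with under 100 UMIs there, falls outside the genes behind these shares and was not past 1.5-fold. In EVL-like cells 1 was at least 1.5-fold higher, against 14.9% of 6003 genes, and 1 was lower, against 14.1%. That lower gene, *myl9b*, had 6 and 16 UMIs there and so falls outside the genes behind these shares, and of the 8 contractility genes with at least 100 UMIs in EVL-like cells none was at least 1.5-fold lower. The median log2 ratio of the 10 genes was -0.20 in deep and -0.04 in EVL-like cells, beside -0.09 and 0.02 over all genes.

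*myh9a* differed between libraries in deep cells and not detectably in EVL-like cells. It had 20.8 CPM in deep cells of *MZwnt11/slb* and 43.3 CPM in those of wildtype, a log2 ratio of -1.06 (-1.19 to -0.93). It lay between -1.45 and -0.99 in 8 deep clusters, each with an interval below 0. It was 0.09 (-1.07 to 1.38) in the axial mesoderm-like cluster 10, with 24 UMIs in *MZwnt11/slb* and 9 in wildtype, and 0.86 (-0.94 to 2.98) in the germ cell-like cluster 13, with 10 UMIs and 4 UMIs. In the YSL-like cluster it was -1.33 (-2.43 to -0.35), with 11 UMIs in *MZwnt11/slb* and 44 in wildtype. In EVL-like cells, at 166 CPM in *MZwnt11/slb* and 167 CPM in wildtype, the ratio was -0.003 (-0.15 to 0.14), and within cluster 11 it was 0.20 (-0.20 to 0.61). Of the remaining heavy chains, *myh10* had a log2 ratio of -0.26 (-0.37 to -0.15) in deep and 0.04 (-0.31 to 0.39) in EVL-like cells, and *myh9b*, at -0.48 (-1.17 to 0.20) in deep cells, was not resolved. Within cluster 11 the *myh10* ratio was -0.73 (-1.40 to -0.045), and in EVL-like cells without cluster 11 it was 0.33. The 3 heavy chain genes with *myh9a* included summed to -0.60 (-0.68 to -0.52) in deep cells.

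The kinase genes *rock2a* and *rock2b* were higher in *MZwnt11/slb* deep cells. *rock2a* had 35.1 CPM in *MZwnt11/slb* and 23.5 CPM in wildtype deep cells, a log2 ratio of 0.58 (0.45 to 0.71), and was above 0 in all 10 deep clusters, in 6 with an interval above 0. In EVL-like cells it had 96 UMIs in *MZwnt11/slb* and 52 in wildtype, a log2 ratio of 0.78 (0.27 to 1.29). *rock2b* had 8.81 CPM in *MZwnt11/slb* and 4.68 CPM in wildtype deep cells, a log2 ratio of 0.91 (0.63 to 1.20), and was above 0 in 8 of 10 deep clusters, in 4 with an interval above 0. In EVL-like cells its log2 ratio was -0.07 (-0.34 to 0.20). *rhoab* was higher in *MZwnt11/slb* in both classes, with log2 ratios of 0.24 (0.20 to 0.29) in deep and 0.38 (0.23 to 0.52) in EVL-like cells, while *rhoaa* was at -0.04 (-0.09 to 0.01) in deep and 0.08 (-0.06 to 0.23) in EVL-like cells.

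The light chains *myl12.1* and *myl12.2* were slightly lower in *MZwnt11/slb* deep cells, and the rare *myl9b* was lower by more. *myl12.1* had a log2 ratio of -0.21 (-0.24 to -0.17) in deep cells, below 0 in all 10 deep clusters with each interval below 0, and -0.07 (-0.17 to 0.02) in EVL-like cells. *myl12.2* had -0.19 (-0.26 to -0.12) in deep and -0.22 (-0.44 to -0.01) in EVL-like cells. Within cluster 11 the *myl12.2* ratio was -0.63 (-1.02 to -0.24), and in EVL-like cells without cluster 11 it was -0.09. *myl9b*, with 95 UMIs in *MZwnt11/slb* and 195 in wildtype deep cells, had -1.14 (-1.51 to -0.78), and with 6 and 16 UMIs in EVL-like cells -1.52 (-3.17 to -0.10). Since each genotype is 1 library, a difference of this size between libraries of 1 genotype cannot be told apart from one between genotypes.

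**Figure D5:**
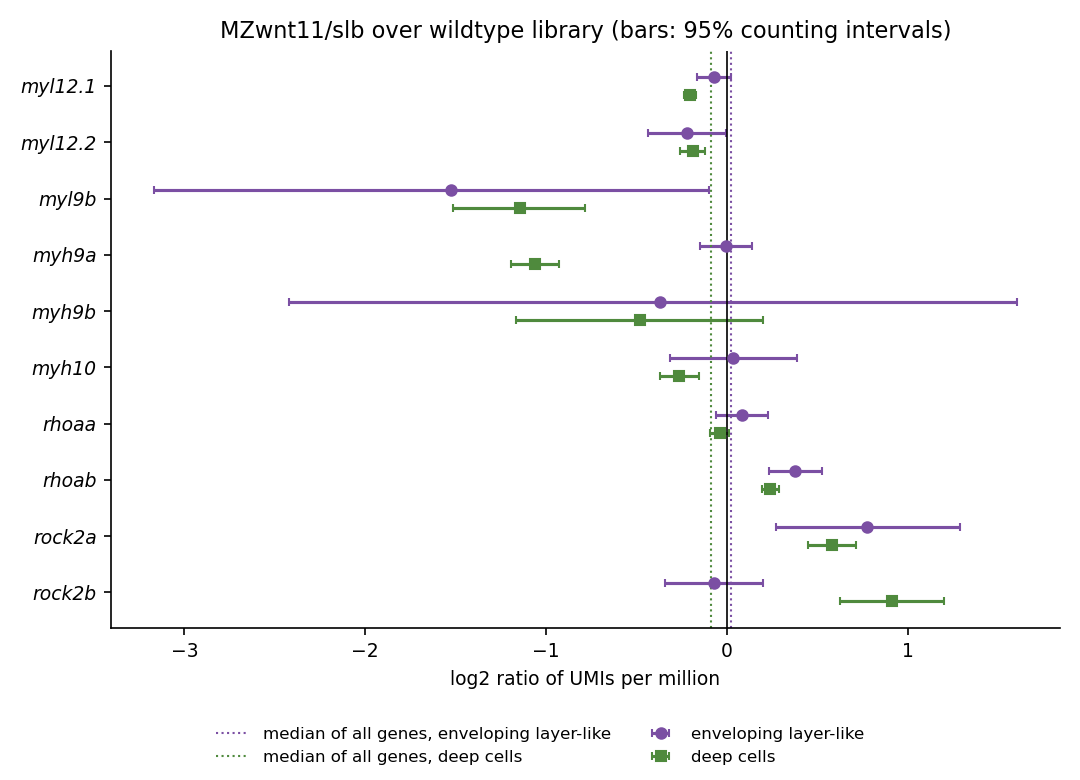
The log2 ratio of CPM in the *MZwnt11/slb* over the wildtype library (horizontal axis) is plotted for each gene in EVL-like cells (circles, upper of each pair) and deep cells (squares, lower), with 95% counting intervals, and dotted lines mark the median of all genes at 0.02 in EVL-like and -0.09 in deep cells. The deep-cell ratio of *myh9a* is -1.06 and its EVL-like ratio -0.003, while *rock2b* is at 0.91 in deep and -0.07 in EVL-like cells.

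Of the other genes of the pathway, 4 lists were counted among genes with at least 100 UMIs over both libraries, whereas the background shares ask for 100 UMIs in the groups compared. Of 12 myosin light chain kinases and phosphatase subunits, 3 were at least 1.5-fold higher and 5 lower in EVL-like cells of *MZwnt11/slb*, and 3 higher and 6 lower in wildtype. *mylk5*, a myosin light chain kinase, had a log2 ratio of 3.31 in *MZwnt11/slb* and 2.96 in wildtype, and *cdc42bpb*, a kinase of the MRCK group, had -0.95 and -0.94. The kinase genes *dapk1*, at 0.50 in *MZwnt11/slb* and 0.96 in wildtype, and *stk17a*, at -1.50 and -1.46, were also among the highest and lowest of this list, the second from 8 and 7 UMIs in EVL-like cells. The background shares of 12.0% higher and 46.9% lower in *MZwnt11/slb*, and 12.6% and 49.9% in wildtype, stand beside all these counts.

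Of other myosin II chains, 2 had at least 100 UMIs, and 1 of them was at least 1.5-fold higher in EVL-like cells of both libraries. *myh14*, the heavy chain of myosin IIC, had a log2 ratio of 1.38 in *MZwnt11/slb* and 2.69 in wildtype, and *myl6*, an essential light chain, had -0.07 and -0.48. Of 11 cytokinesis genes 3 were higher and 5 lower in *MZwnt11/slb*, and 1 higher and 7 lower in wildtype. The highest, *rhpn2*, had a log2 ratio of 5.28 in *MZwnt11/slb* and 5.14 in wildtype, whereas *racgap1*, a subunit of the centralspindlin complex of the dividing cell, had -0.99 and -1.37. *kif20a*, a mitotic kinesin, had -0.63 in *MZwnt11/slb* and -1.26 in wildtype, and *prc1b*, with 8 UMIs in EVL-like cells of *MZwnt11/slb* and 11 in those of wildtype, had 1.28 and 0.24. Of 33 actin and actin-binding genes, 10 were higher and 7 lower in *MZwnt11/slb*, and 9 higher and 11 lower in wildtype, led by *pfn1* (profilin) at 5.23 in *MZwnt11/slb* and 5.91 in wildtype and *cnn2* (calponin) at 5.12 and 4.86. The lowest were *tpm4a*, a tropomyosin, at -2.72 in *MZwnt11/slb* and -0.63 in wildtype, and *actc1b*, a muscle actin, at -1.71 and -0.85, both from few UMIs.

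Between the libraries the same lists were counted with 12.5% of genes higher and 19.9% lower in deep cells, and 14.9% and 14.1% in EVL-like cells, as background. In deep cells 1 of the 12 kinases and phosphatase subunits was higher and 2 were lower in *MZwnt11/slb*, none of the 11 cytokinesis genes was higher and 2 were lower, and 3 of the 33 actin genes were higher and 8 lower. In EVL-like cells 2 of the 12 were higher and 4 lower, 2 of the 11 higher and none lower, and 6 of the 33 higher and 7 lower. Of the 2 myosin II chains, 1 was higher and 1 lower in deep cells and 1 was lower in EVL-like cells.

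*rock2b* was the gene of the 10 with the largest mean log2 ratio of EVL-like over deep cells. The 5 genes whose levels followed it most closely over the 26 combinations of cluster and library with at least 20 cells, out of 7744 genes, were *arhgef18a* (Pearson r = 0.94), *mgst1.2* (0.93), BX005210.1 (0.929), *acacb* (0.929) and zgc:174935 (0.927). All had higher levels in EVL-like than in deep cells of both libraries, from a log2 ratio of 4.14 to 7.44. *myh9a* followed *rock2b* with r = 0.72, and the remaining 8 genes had r between -0.53 and -0.04. The points share libraries and clusters and 4 of the 26 are EVL-like, so these values describe the clusters and carry no p.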

How the data were processed

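The deposited files hold raw UMI counts for the barcodes that the authors' Cell Ranger run called as cells, with no normalization. The submitters' processing notes name version 6.1.1 and the GRCz11 build, whereas the methods name a later version.

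All cells were kept, among them 1601 *MZwnt11/slb* and 1292 wildtype cells with under 1000 UMIs or over 10% mitochondrial UMIs. For clustering, size factors were applied, values were taken as log10(x + 1) and scaled per gene, and 30 principal components were computed from 17429 genes seen in at least 10 cells, with 122 genes, the 10 contractility genes and the other listed contractility genes, left out. Residuals on log10 UMIs and sample were clustered by the Leiden algorithm (20 neighbours, resolution 1, seed 0). A cluster took the name of a marker list of which 3 or more genes were raised (1.5-fold or more, from 10 or more UMIs), if that list also had the most genes among its 10 leading ones (50 or more UMIs each), or if no list had any there and 0.5 or more of the list was raised. This naming rule was set after the clusters had been seen, and 10 of 15 clusters were named.

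UMIs were summed per class and library. Ratios carry exact conditional 95% intervals of 2 Poisson counts, shares carry exact binomial (Clopper-Pearson) ones, and PCR and library effects are not covered. Background shares count genes with at least 100 UMIs in the groups compared that differ by at least 1.5-fold. A count of 0 was not replaced, so such a ratio is infinite and counts as past the fold. Intervals were tested on simulated data. The 10 genes, the marker lists and the other lists were chosen with earlier results of these data known. All 10 are named, as are the 2 highest and 2 lowest genes of each other list reported by mean log2 ratio of EVL-like over deep cells and the 5 genes most like *rock2b* (log2(CPM + 10), at least 500 UMIs). *rock1* is named as well, beside the *rock2* genes. The results of 2 of the other lists are not reported here. RefSeq tables of another assembly were not used for coordinates. Alternatives were resolutions 0.5 and 2, 20 other seeds, a weighted graph, no centring by sample, contractility genes kept, cell filters (1000 or more UMIs with 10% or less mitochondrial, or without cells above the 95th percentile of UMIs), a keratin gate, named germ layers only, other scalings, thinning to 2944 UMIs, and other minimums and folds. Those without clusters 6, 8, 11 or 14 were added after the data had been seen. Python 3.11.15, numpy 2.4.6, scipy 1.17.1, pandas 2.3.3, python-igraph 0.11.9, leidenalg 0.10.2 and matplotlib 3.10.9 were used.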

Additional observations from a re-analysis of the deposited data

Results flagged for a closer look

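Among the genes named as highest or lowest of the other lists, 3 had a *MZwnt11/slb* over wildtype ratio above 0 in one class and below 0 in the other. Their counting intervals were clear of 0 on both sides. The share of all genes with such a pattern was not counted, so whether 3 is many cannot be read from this. The difference between classes was not tested, since each genotype is 1 library. *myh14*, the myosin IIC heavy chain, had a log2 ratio of -0.657 in EVL-like cells (65 UMIs in *MZwnt11/slb*, 95 in wildtype) and 0.65 in deep cells (174 in *MZwnt11/slb*, 103 in wildtype). *pfn1*, profilin, had -0.392 in EVL-like and 0.296 in deep cells. *cnn2*, calponin, had 0.111 in EVL-like and -0.146 in deep cells, where the interval of -0.288 to -0.003 barely cleared 0.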

How the results depend on the processing

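Over 18 or 19 alternatives each, 702 of 730 recomputed values of single genes kept their sign and 28 changed it, none of them for a value that was at least 1.5-fold apart as reported. *myh9a* and *rock2b* stayed at least 1.5-fold higher in EVL-like than in deep cells under all 18 alternatives in each library, and *myh9a* at least 1.5-fold lower and *rock2b* at least 1.5-fold higher in *MZwnt11/slb* than in wildtype deep cells under all 19. The *myh9a* deep-cell ratio ranged from -1.13 to -0.80 and that of *rock2b* from 0.81 to 1.31. *rhoab* in EVL-like over deep cells of *MZwnt11/slb* was past 1.5-fold in 6 of 18, and *rock2a* in *MZwnt11/slb* over wildtype deep cells in 5 of 19. Over 20 other seeds the EVL-like class held 584 to 768 *MZwnt11/slb* and 696 to 822 wildtype cells. At 10 of these seeds it held under 700 cells in both libraries, against 767 and 820 as reported, so its extent depends on the seed.

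Median-of-ratios scaling moved the median of the 10 genes in EVL-like over deep cells to 0.108 in *MZwnt11/slb* and 0.078 in wildtype, and the genes at least 1.5-fold lower there to 2631 in *MZwnt11/slb* and 2830 in wildtype. Counts of genes past the fold follow the minimum of UMIs and the fold by construction. With at least 20 UMIs, 1970 genes in *MZwnt11/slb* and 2052 in wildtype were higher in EVL-like cells, 2367 were higher and 3662 lower in *MZwnt11/slb* deep cells, and 1850 higher and 2104 lower in EVL-like cells. With at least 500 UMIs, 610 genes were higher and 2886 lower in EVL-like cells of *MZwnt11/slb*, 641 and 3178 in those of wildtype, 714 higher and 1029 lower in *MZwnt11/slb* deep cells, and 308 and 220 in EVL-like cells. With a fold of 2, 2500 in *MZwnt11/slb* and 2901 in wildtype were lower in EVL-like cells, 654 were higher and 1053 lower in *MZwnt11/slb* deep cells, and 320 and 365 in EVL-like cells. With named germ layers only, 1398 genes were lower in *MZwnt11/slb* deep cells. After thinning, 555 were higher and 519 lower in *MZwnt11/slb* EVL-like cells, from fewer UMIs. No paired analysis was possible because each genotype is 1 library. Depth limits *myl9b* and *myh9b*, for which few UMIs were counted.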

Other observations

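Cluster 14 held 19 *MZwnt11/slb* and 10 wildtype cells led by *foxj1a*, *sox17*, *sox32* and *noto*, and carried 5 of the 19 EVL markers. It was left unnamed and counted among the deep cells, and its removal changed the sign of no ratio of the 10 genes.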
